A study of Mus musculus with 18 samples.

Results

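The genes described here are 46 mouse genes induced by type I interferon. They were chosen by symbol from a written list, which was drawn up with earlier results of these data known. All 46 had 1 row in each of the 2 count tables of the series, which held 54309 genes for lymphocytes and 13759 genes for macrophages. After removal of genes with few reads, 45 members were tested in lymphocytes and 46 in macrophages. Oas2 was the member left out, with 0 reads in 11 of 12 lymphocyte libraries.

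Type I interferons (IFN-α and IFN-β) bind the receptor chains IFNAR1 and IFNAR2, which activate the kinases TYK2 and JAK1. Their targets include STAT2, which acts with IRF9 on a DNA element called the interferon-stimulated response element (ISRE) to switch on antiviral genes. Many of the same genes, above all the guanylate-binding proteins (GBPs) and the immunity-related GTPases, also respond to IFN-γ, the cytokine that NK cells themselves secrete.

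The cells came from female mice carrying liver metastases (LM) of MC38, a mouse colon adenocarcinoma cell line injected into the spleen. From LM and from metastasis-free liver (MFL), lin- CD45+ NKp46+ lymphocytes were sorted into 4 groups of 3 libraries. MFL NK cells and LM CD49a- NK cells were CD49a- CD49b+, LM CD49a+ NK cells were CD49a+ CD49b+, and MFL ILC1 (type 1 innate lymphoid cells) were CD49a+ CD49b-. Each lymphocyte library was a pool of 6 to 8 samples. Metastasis-associated macrophages (MAMs) of LM were sorted as lin- CD45+ CD11b+ cells with high F4/80 (F4/80hi) or with lower F4/80 (F4/80int, called F4/80low in the labels), in 3 libraries each. No group was treated with interferon, and no interferon protein was measured. LM was digested with enzymes and MFL was not, so that site and dissociation cannot be told apart in comparisons between them.

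Libraries held 8795721 to 14386834 counts in lymphocytes and 21278959 to 32267015 in MAMs. The sorted types carried their own markers. NK and ILC1 genes summed to 2136 to 3387 CPM (counts scaled to library size) in lymphocytes and to 1.52 to 20.6 in MAMs, and macrophage genes to 0 to 114.6 CPM in lymphocytes and to 9067 to 23350 in MAMs. The lymphocyte libraries varied more. LM CD49a- NK replicate 2 had the fewest genes with at least 10 counts (9608, against up to 13218), and 10 members were at 0 in it. LM CD49a+ NK replicate 3 stood apart from the other two of its group over the members, as described below.

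The ISRE core was frequent in the members' promoters. RefSeq promoter windows (250 bases before to 50 after a gene's start) were at hand for 35 of the 46 members. The core, read as GAAA, 2 bases of any kind and GAAA on either strand, was in the window of 20 of these 35 (57.1%), against 1079 of all 27025 genes with a window (3.99%). The stretches below, up to 140 bases of promoter in the gene's direction with every ISRE core in capitals, are shown for 5 members that fell in F4/80hi MAMs and for Bst2, which rose. Bases inside the annotated genes are left out.

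Isg15: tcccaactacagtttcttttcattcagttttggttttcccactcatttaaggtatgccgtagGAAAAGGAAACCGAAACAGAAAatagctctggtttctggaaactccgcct

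Oas3: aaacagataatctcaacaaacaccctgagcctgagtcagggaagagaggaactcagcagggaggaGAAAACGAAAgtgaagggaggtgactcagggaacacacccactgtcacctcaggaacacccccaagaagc

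Ifit1: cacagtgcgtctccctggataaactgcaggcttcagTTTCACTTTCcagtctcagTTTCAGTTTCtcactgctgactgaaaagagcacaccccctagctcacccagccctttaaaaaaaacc

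Ifit1bl1: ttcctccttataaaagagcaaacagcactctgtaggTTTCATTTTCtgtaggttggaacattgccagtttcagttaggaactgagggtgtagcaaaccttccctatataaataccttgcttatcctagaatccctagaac

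Rsad2: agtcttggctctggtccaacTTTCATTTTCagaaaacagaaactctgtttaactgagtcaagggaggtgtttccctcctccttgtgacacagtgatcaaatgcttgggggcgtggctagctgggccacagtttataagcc

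Bst2: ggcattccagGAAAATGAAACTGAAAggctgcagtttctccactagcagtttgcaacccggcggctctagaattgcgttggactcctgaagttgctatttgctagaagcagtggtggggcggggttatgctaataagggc

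Each stretch matched the GRCm39 genome once on its chromosome. They lie at chr4:156285304-156285415 (minus strand, Isg15), chr5:120915730-120915864 (minus, Oas3), chr19:34618149-34618270 (plus, Ifit1), chr19:34579369-34579508 (minus, Ifit1bl1), chr12:26506452-26506591 (minus, Rsad2) and chr8:71990117-71990256 (minus, Bst2). Distances below are counted from the RefSeq start. The printed stretches of Isg15, Ifit1 and Oas3 stop 28, 18 and 5 bases short of it, where the annotated gene begins. In Isg15, 3 overlapping cores began 78, 72 and 66 bases before the RefSeq start. Ifit1 had cores 104 and 85 bases before its start, and Bst2 had 2 overlapping cores at 130 and 124. In the stretches of Oas3, Ifit1bl1 and Rsad2 there was 1 each, at 75, 104 and 120 bases. Ifit1bl1 had another RefSeq window, not shown, with a core 23 bases before its start. The ISRE core was held by 17 of 29 members that fell in F4/80hi MAMs and had a window, by 1 of 2 that rose (Bst2) and by 2 of 4 that were not called (Eif2ak2 and Gbp7). The letters therefore stood in members of either direction, and a match of letters is not a measured binding site.

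MAMs with high F4/80 expressed most interferon response genes at lower levels than MAMs with lower F4/80. Of 46 members, 39 were lower in F4/80hi MAMs and 2 were higher at an adjusted p under 0.1 (edgeR's quasi-likelihood test), and 5 did not pass. Over all 13759 genes tested, 27.1% were called lower and 27.8% higher. The median log2 fold change of the members was −0.61, against 0.014 over all genes tested. In 38 of the 39, every F4/80hi library lay below every F4/80int library, which held for 28.6% of all genes. Cmpk2 was the exception. Both members that were higher were so in every F4/80hi library, as were 29.8% of all genes.

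**Figure D1:**
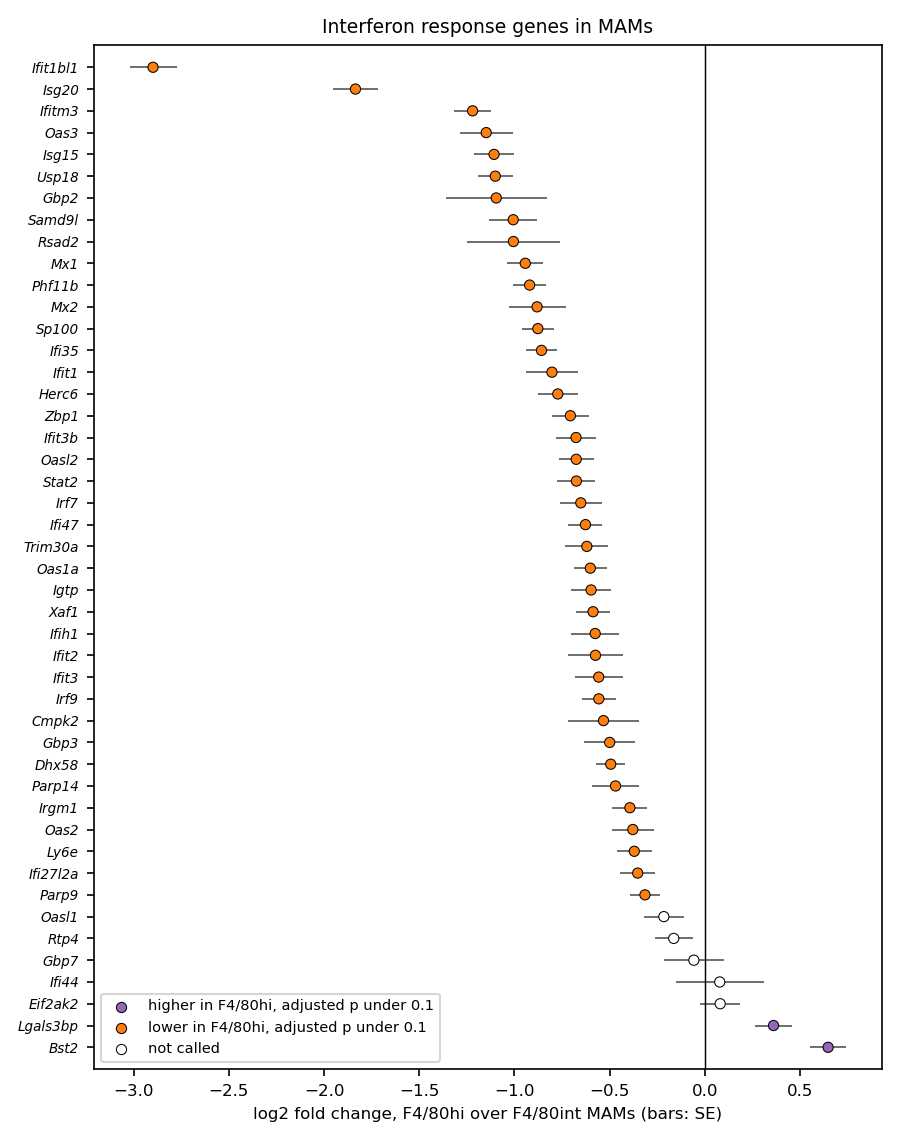
Log2 fold change of the 46 interferon response genes in F4/80hi over F4/80int MAMs (3 libraries each), ordered by size, with bars for the standard error. Orange points are the 39 called lower, purple points the 2 called higher (Bst2 and Lgals3bp), and open points the 5 that did not pass; Ifit1bl1 stands apart at −2.90.

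Ifit1bl1, a member of the IFIT family of RNA-binding antiviral proteins, changed most. It was at 4.32, 5.10 and 4.35 CPM in the F4/80hi libraries and at 30.8, 34.7 and 37.4 CPM in the F4/80int libraries. The log2 fold change was −2.90 ± 0.12 (SE; adjusted p = 2.03e-06). The groups were far apart in every library. Ifit1bl1 lies on chromosome 19 (GRCm39, 34570291 to 34579356, minus strand) inside the Ifit cluster, between Ifit3 and Ifit3b. Its neighbors fell by much less: Ifit2 by 0.57, Ifit3 by 0.56, Ifit3b by 0.68 and Ifit1 by 0.80 on the log2 scale, with SEs of 0.11 to 0.15. Ifit3 and Ifit3b share 2030 bases at 97.2% identity, so that the split of reads between them is uncertain.

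Isg20, an exonuclease that degrades single-stranded RNA, was at 9.19, 9.35 and 11.0 CPM in F4/80hi and at 38.8, 31.1 and 35.7 CPM in F4/80int MAMs. It changed by −1.83 ± 0.12 (adjusted p = 1.17e-05). Ifitm3, a membrane protein that blocks the fusion of enveloped viruses, was at 288, 298 and 290.1 CPM against 663, 622 and 754 CPM, a log2 change of −1.22 ± 0.10 (adjusted p = 3.3e-05). For both genes the F4/80hi libraries were closely grouped and all lay below the F4/80int libraries.

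Of the 2'-5' oligoadenylate synthetases, which make the second messenger that activates RNase L, and their relatives, 4 of 5 fell. Oas3 was at 80.6, 77.4 and 97.2 CPM in F4/80hi and at 159, 187 and 220.1 CPM in F4/80int MAMs (log2 change −1.15 ± 0.14, adjusted p = 0.000282). Oasl2 (−0.68), Oas1a (−0.60) and Oas2 (−0.38) were also lower. Oasl1 was the one not called, at −0.22 ± 0.11 (adjusted p = 0.132). Oas2, at 88.4 to 141 CPM in MAMs, is the member that had almost no reads in lymphocytes. Oas1a shares 1861 bases at 97.6% identity with Oas1g, and its reads cannot be assigned with certainty.

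All 3 members of the ISG15 system were lower in F4/80hi MAMs. ISG15 is a ubiquitin-like protein that is joined to other proteins by ligases such as HERC6 and removed by the protease USP18, which also dampens signaling at IFNAR2. Isg15 was at 52.3, 59.9 and 53.4 CPM against 124, 104 and 129 CPM in F4/80int MAMs (−1.11 ± 0.11, adjusted p = 8.45e-05). Usp18 was at 42.8, 47.3 and 44.6 CPM against 87.2, 99.8 and 102 CPM (−1.10 ± 0.09, adjusted p = 4.07e-05). The groups did not overlap for either gene. Herc6 changed by −0.77 ± 0.11.

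Transcription and signaling members fell together: Stat2 (−0.67), Irf7 (−0.65), the master regulator of IFN-α genes, Irf9 (−0.56) and Usp18. Both dynamin-like Mx GTPases fell (Mx1 −0.94, Mx2 −0.88), and they share 646 bases at 96.1% identity. Among nucleic acid sensors, Zbp1 (−0.71), Ifih1 (−0.58), which encodes the RNA sensor MDA5, and its relative Dhx58 (−0.49) were lower. Eif2ak2, encoding the kinase PKR, was at 59.2, 64.0 and 74.2 CPM against 57.7, 66.8 and 62.2 CPM, and these groups overlapped (0.08 ± 0.11, adjusted p = 0.561).

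Samd9l, a restriction factor that lowers translation, was at 66.6, 62.9 and 82.2 CPM in F4/80hi and at 125, 157 and 144 CPM in F4/80int MAMs (−1.01 ± 0.13, adjusted p = 0.000349). Rsad2, which encodes viperin, changed by −1.01 ± 0.25, with 1 F4/80int library (239 CPM) far above the others of its group (115 and 133 CPM). Cmpk2, its neighbor in the genome, changed by −0.53 ± 0.19. Its libraries overlapped, at 36.2, 42.1 and 51.4 CPM against 48.5, 61.4 and 78.0 CPM.

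Of the 6 GBP and immunity-related GTPases, which attack the vacuoles of intracellular pathogens, 5 fell. Gbp2 was at 181, 93.8 and 167 CPM against 409, 241 and 295 CPM (−1.10 ± 0.27, adjusted p = 0.00979). Replicate 2 was the lowest library of both groups for this gene, which widened its error. Ifi47 (−0.63), Igtp (−0.60), Gbp3 (−0.50) and Irgm1 (−0.39) fell by less, and Gbp7 did not pass (−0.06 ± 0.16, adjusted p = 0.789). All 5 PARP and nuclear members were lower, from Phf11b (−0.92) and Sp100 (−0.88) through Trim30a (−0.62) to Parp14 (−0.47) and Parp9 (−0.31). The remaining members were Ifi35 (−0.86), Xaf1 (−0.59) and Ifi27l2a (−0.35), which fell, and Rtp4 (−0.16) and Ifi44 (0.08), which did not pass (adjusted p = 0.218 and 0.804).

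The 2 members that rose were both cell surface or secreted proteins, and were singled out after their values were seen. Bst2 encodes tetherin, which holds budding virions at the cell surface. It was at 273, 319 and 286 CPM in F4/80hi and at 183, 176 and 202 CPM in F4/80int MAMs (0.65 ± 0.09, adjusted p = 0.000794). Lgals3bp, a secreted galectin ligand, was at 558, 517 and 625 CPM against 427, 454 and 443 CPM (0.36 ± 0.10, adjusted p = 0.0145). Ly6e, another membrane member, went the other way, at 1692, 1591 and 1595 CPM against 1973, 2093 and 2239 CPM (−0.37 ± 0.09).

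**Figure D2:**
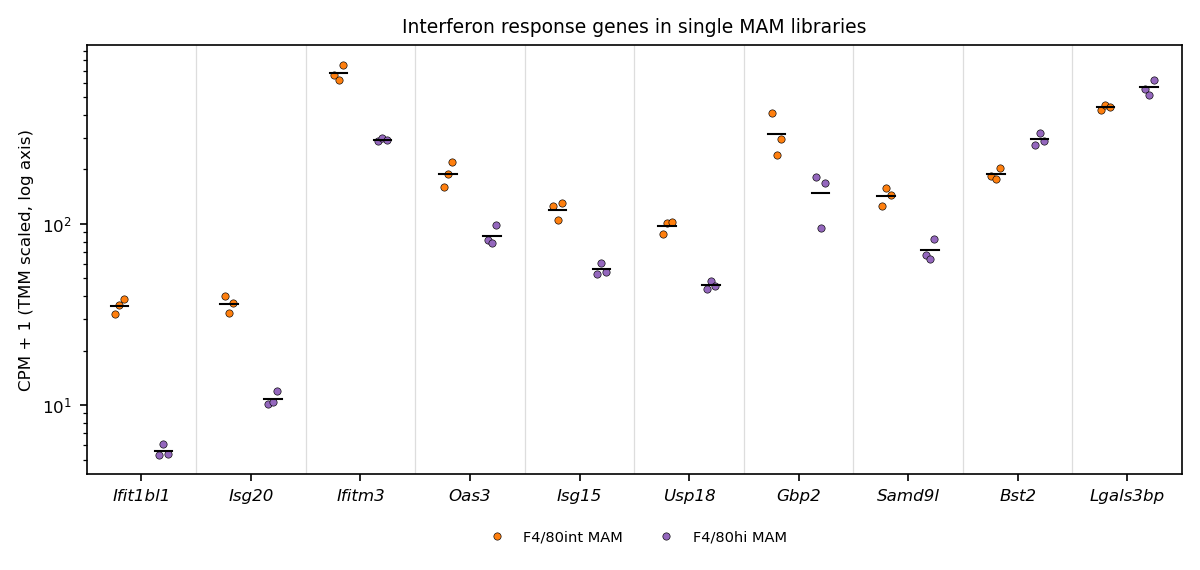
CPM + 1 on a log axis in each MAM library for the 8 members called with the largest changes and for the 2 called higher. Points are single libraries and black lines group means over 3 libraries; the 2 colors do not overlap for any of the 10 genes shown.

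Most kinases and transcription factors of the pathway were lower in F4/80hi MAMs as well. Of 29 other interferon pathway genes, 25 were tested in MAMs, of which 14 were called lower and 5 higher, against 27.1% and 27.8% of all genes. Of the receptor chains, Ifnar1 did not pass (0.10 ± 0.11, adjusted p = 0.478), and Ifnar2 was slightly higher (0.19 ± 0.09, adjusted p = 0.0961). The kinases were lower: Tyk2 was at 90.1, 79.8 and 114 CPM in F4/80hi and at 187, 195 and 176 CPM in F4/80int MAMs (−0.97 ± 0.13), and Jak1 changed by −0.32 ± 0.11. Jak2, which serves the IFN-γ receptor, changed by −2.71 ± 0.15, from 393, 338 and 266 CPM in F4/80int to 53.3, 46.9 and 52.3 CPM in F4/80hi MAMs. The transcription factors Irf5 (−1.07), Irf2 (−0.83), Irf1 (−0.48) and Irf3 (−0.22) were lower.

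The IFN-γ receptor chain Ifngr1 (−1.04), the feedback inhibitors Socs1 (−0.83), Socs3 (−0.71) and Ptpn2 (−0.55), the RNA sensor Rigi (−0.59) and its ligase Trim25 (−0.73) were also lower. Ifng itself was near 0, at 0.50, 0 and 0.097 CPM in F4/80hi and at 1.54, 1.43 and 0.13 CPM in F4/80int MAMs. It was called lower (−2.51 ± 1.07, adjusted p = 0.0857), but the groups overlapped. The members of this list that rose, besides Ifnar2, were the endosomal RNA sensors Tlr7 (1.09) and Tlr3 (0.96), the DNA sensor Cgas (0.46) and the kinase Tbk1 (0.18). The interferon genes Ifnb1, Ifna1, Ifna2 and Ifna4 had no row by name in the MAM counts and could not be analysed there. In lymphocytes each had 0 reads in all 12 libraries, and a level too low to give reads is not excluded.

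Markers of other cell types also differed between the MAM subsets. Dendritic cell genes (3 of 4 called lower in F4/80hi) summed to 6.59 to 8.02 CPM in F4/80hi and to 119 to 204 CPM in F4/80int MAMs, the latter with Flt3 at 72.3 to 132 CPM and Zbtb46 at 42.4 to 66.6 CPM. Monocyte genes (3 of 3 lower) summed to 431 to 541 CPM against 1501 to 1509 CPM, and the NK and ILC1 genes (4 of 5 tested lower) to 1.52 to 2.61 against 16.2 to 20.6 CPM. Macrophage genes (7 of 8 higher) summed to 17990 to 23350 CPM against 9067 to 11370 CPM. Neutrophil genes (3 of 4 lower), endothelial genes (2 lower) and the tumor epithelial gene Epcam were also lower in F4/80hi. Kupffer cell genes (2 higher, 1 lower) and plasmacytoid dendritic cell genes, Bst2 among them (2 higher, 2 lower), went both ways. No B cell, T cell, hepatocyte or erythroid marker was called. Of all genes, 27.1% were called lower and 27.8% higher. The part of these markers in the lower interferon response genes was not tested. In bulk samples, fewer cells of a type and less RNA per cell cannot be told apart.

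In lymphocytes few members passed the test, and the libraries of a group differed from each other. As the deviation of log2 CPM from each gene's mean over the 12 libraries, the median of the 45 members was −0.36, −0.20 and −0.24 in MFL NK cells, −0.37, −0.03 and −0.48 for the CD49a- cells of LM, 0.71, 0.61 and −0.23 for the CD49a+ cells of LM, and 0.41, 0.54 and 0.49 in MFL ILC1. Over all genes tested the same median ran from −0.30 to 0.24. The 3 ILC1 libraries and LM CD49a+ NK replicates 1 and 2 were the 5 highest. LM CD49a+ NK replicate 3 was within the range of the CD49a- groups.

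**Figure D3:**
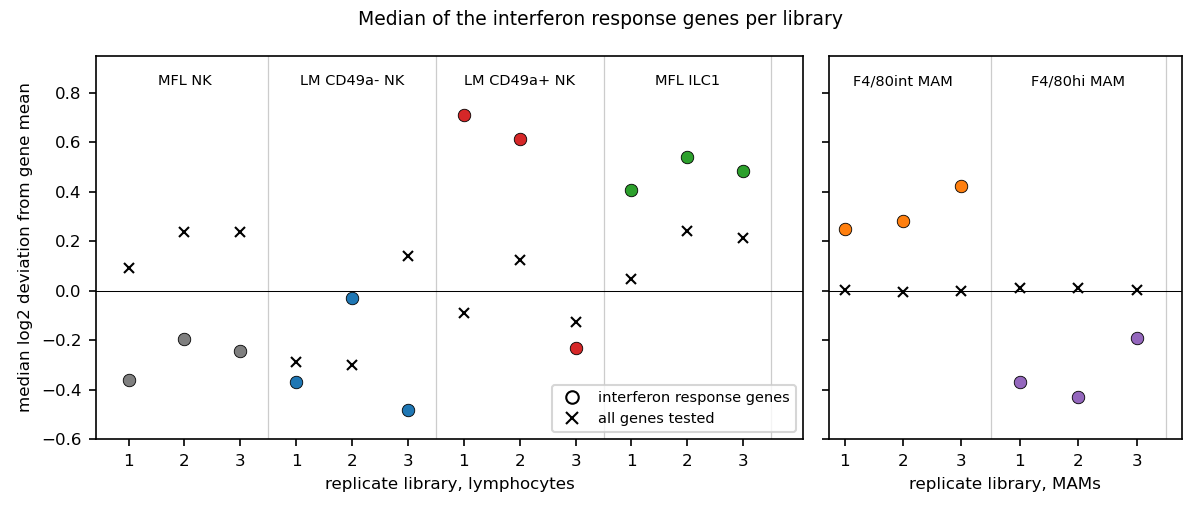
Median deviation of log2 CPM from each gene's mean over the libraries of its table, per library, for the interferon response genes (circles, colored by group) and for all genes tested (crosses). The 3 MFL ILC1 libraries and LM CD49a+ NK replicates 1 and 2 lie from 0.41 to 0.71, replicate 3 at −0.23; all F4/80int MAM libraries lie above all F4/80hi libraries.

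By group means, 22 of 45 members were highest in LM CD49a+ NK cells and 20 in MFL ILC1, against 2 in LM CD49a- NK and 1 in MFL NK cells. How all genes split between the groups by this measure was not computed. Single members were noisy, however. Ifitm3 was at 14.1, 0.16 and 0 CPM in LM CD49a+ NK cells, so that 1 library made its group mean, and Isg15 was at 1.74, 22.5 and 0.30 CPM. Stat2 was at 30.7, 83.9 and 3.99 CPM in the same libraries. For these 3 members the LM CD49a+ libraries overlapped those of every other group.

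**Figure D4:**
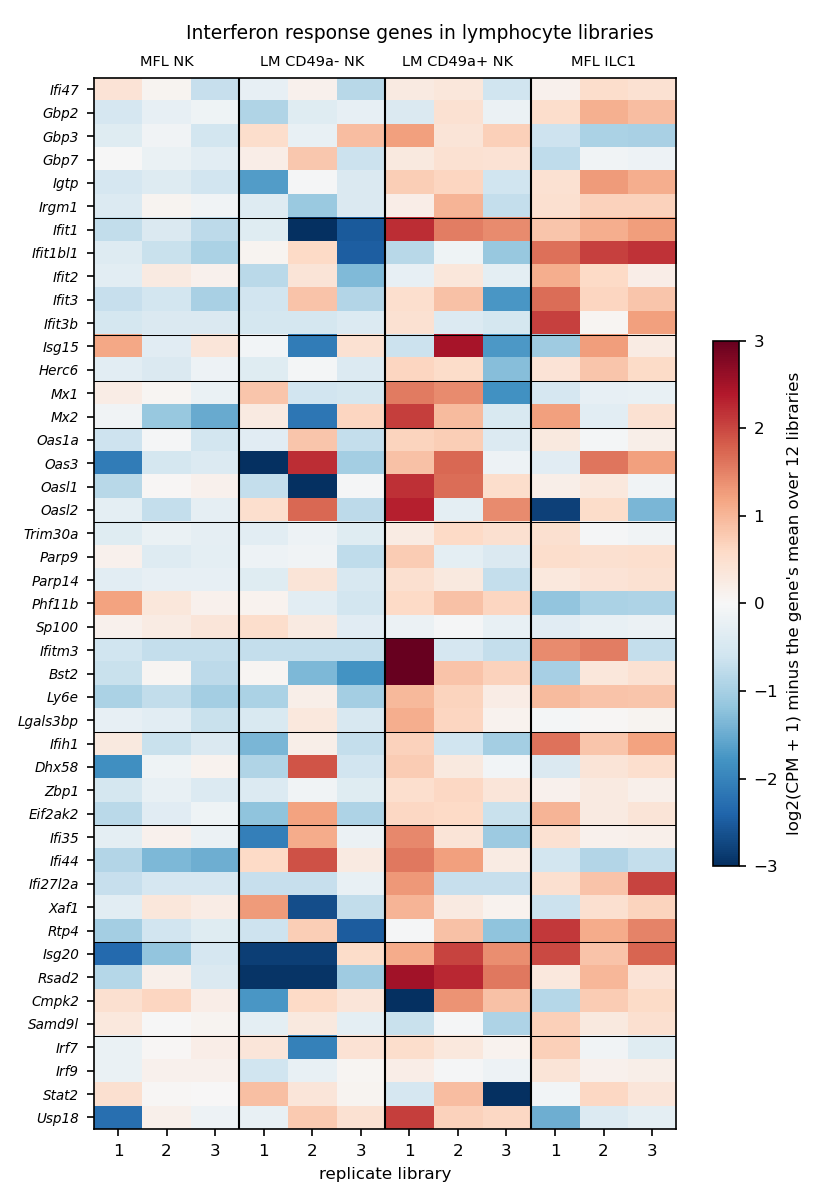
Log2(CPM + 1) of the 45 members tested in lymphocytes minus each gene's mean over 12 libraries, with 3 replicate libraries per group in columns and genes grouped by role between horizontal lines. Red is above and blue below the mean (color scale from −3 to 3); LM CD49a+ NK replicates 1 and 2 and the MFL ILC1 libraries are mostly red, and LM CD49a+ NK replicate 3 is not.

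Between MFL ILC1 and MFL NK cells, Ly6e was the 1 member called in the fit over all 12 libraries, although the ILC1 libraries lay above the NK libraries for many members. Ly6e, a surface protein of the Ly6 family that restricts coronavirus entry, was at 502, 472 and 461 CPM in ILC1 and at 133, 155 and 126 CPM in NK cells (log2 change 1.80 ± 0.30, adjusted p = 0.00154). Of all genes tested, 1.38% were called higher and 1.68% lower. By library values, 23 of 45 members were higher in every ILC1 library than in any NK library and 4 were lower, against 12.2% and 13.1% of all genes. The median log2 change of the members was 0.64, against 0.006 for all genes.

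Ifit1bl1 was at 42.4, 56.4 and 61.0 CPM in MFL ILC1 and at 9.56, 7.74 and 6.09 CPM in MFL NK cells, and missed the threshold by little (2.77 ± 0.81, adjusted p = 0.101). Igtp was at 50.4, 89.4 and 79.0 CPM against 25.2, 27.8 and 24 CPM (1.51 ± 0.49, adjusted p = 0.165). In both genes every ILC1 library was above every NK library. With only the 6 ILC1 and NK libraries in the fit 15 members were called higher and 2 lower of 43 tested, against 4.88% and 4.73% of all genes.

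The 15 members higher in that smaller fit covered several roles. They were the IFIT genes Ifit1bl1 (2.76), Ifit3 (1.97) and Ifit1 (1.84), the GTPases Igtp (1.49), Gbp2 (1.16) and Irgm1 (0.76), the sensors Ifih1 (1.49), Eif2ak2 (1.00) and Zbp1 (0.55), and Isg20 (3.21), Rtp4 (2.38), Ly6e (1.78), Herc6 (0.90), Parp9 (0.67) and Parp14 (0.65). Lower were Phf11b (−1.77), at 7.64, 9.22 and 9.38 CPM in ILC1 and 44.1, 23.7 and 20.6 CPM in NK cells, and Sp100 (−0.51). Phf11b shares near-identical stretches with relatives, among them Phf11a (97.0% over 866 bases).

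Some signaling genes differed between MFL ILC1 and MFL NK cells as well. Of 22 other pathway genes tested, 1 was called higher and 4 lower, against 1.38% and 1.68% of all genes. Jak2 was higher (1.28 ± 0.24), and Irf8 (−3.24 ± 0.38), Ifngr1 (−1.55 ± 0.29), Jak1 (−0.98 ± 0.21) and Tyk2 (−0.96 ± 0.20) were lower. Ifnar1 (−0.29) and Ifnar2 (0.58) did not pass. T cell genes summed to 236 to 680 CPM in ILC1 and to 4.41 to 12.2 CPM in NK cells. Cd3g made up most of this sum, while Cd3e was at 0 to 0.37 CPM in ILC1. Their part in the member values was not tested.

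LM CD49a+ NK cells were higher than MFL NK cells in Ly6e, at 508, 410 and 303 CPM against 133, 155 and 126 CPM (1.56 ± 0.29, adjusted p = 0.0212). This was the 1 member called, higher, and none was called lower, against 0.427% and 0.221% of all genes. The call was lost without LM CD49a+ NK replicate 1 (adjusted p = 0.104) and without MFL NK replicate 1 (0.144) or 3 (0.135), with log2 changes of 1.36 to 1.53. Ly6e lies on chromosome 15 (74826860 to 74847454, plus strand), and its LM CD49a+ libraries did not overlap those of MFL NK cells. This comparison shares the MFL NK libraries with that of ILC1, and the 2 are not independent.

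Lgals3bp was at 386, 282 and 194 CPM in LM CD49a+ and at 152, 146 and 115 CPM in MFL NK cells (1.06 ± 0.28, adjusted p = 0.143). Zbp1, a sensor of left-handed nucleic acids that can start cell death, was at 137, 148 and 123 CPM against 65.7, 81.9 and 71.7 CPM (0.89 ± 0.24, adjusted p = 0.161). Neither passed, although no LM library overlapped an MFL library. In all, 14 of 45 members were higher with no overlap (7.06% of all genes) and 2 were lower (13% of all genes). Without LM CD49a+ NK replicate 3, 29 were higher (14.5% of all genes) and 2 lower (19.8%). That library was left out after its low member values were seen, which favors a larger count of higher members. The median log2 change was 0.82, or 0.73 with members near 0 in 1 group set at a floor of 3 counts, against −0.04 over all genes.

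**Figure D5:**
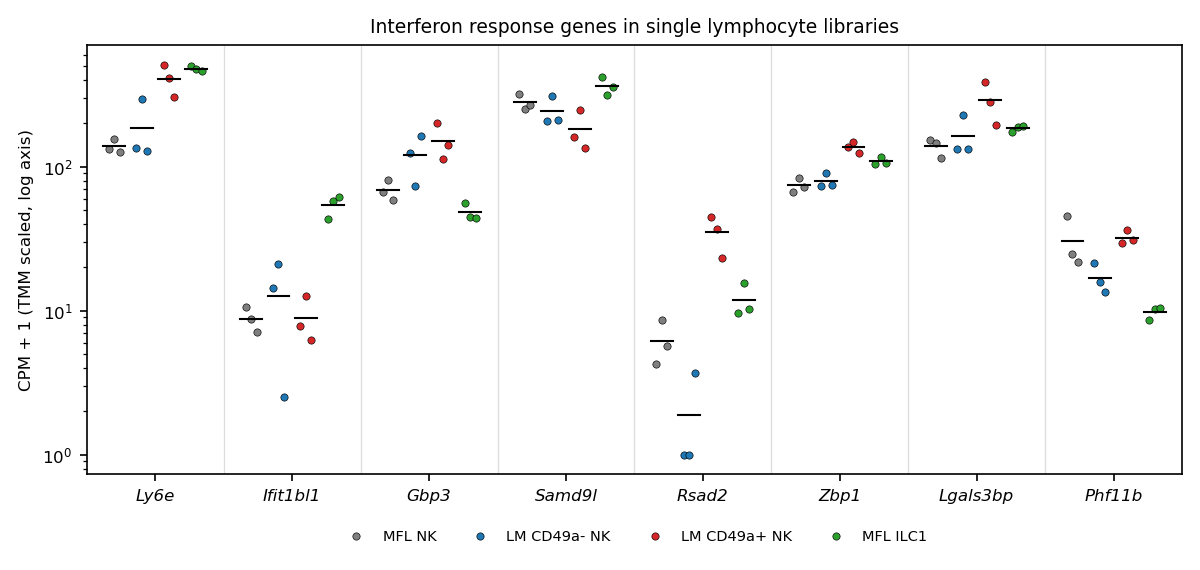
CPM + 1 on a log axis in each lymphocyte library for 8 members, with black lines for group means over 3 libraries. Ly6e is high in LM CD49a+ NK cells and MFL ILC1, Ifit1bl1 in MFL ILC1, and Rsad2 in LM CD49a+ NK cells, where all 3 libraries (22.2 to 43.4 CPM) lie above the other groups.

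Within LM, CD49a+ and CD49a- NK cells come from the same tissue and digestion. None of the 45 members was called between them by edgeR's quasi-likelihood test, against 0.14% of all genes. At an unadjusted p under 0.05 there were 10 of 45 members, against 11.6% of all genes. DESeq2 called 5 members, all higher in CD49a+ cells, and 4.08% of all genes in either direction, whereas limma-voom called 0 members and 0 genes in all. Of the 45, 40 had a log2 change above 0, against 6867 of all 13594 genes tested. The median log2 change was 0.47, and 0.011 for all genes tested. The members' median moved with single libraries, to 0.99 without CD49a- replicate 2, 0.74 without CD49a+ replicate 3 and 0.26 without CD49a+ replicate 1. In 9 members every CD49a+ library was above every CD49a- library (5.72% of all genes), and in 0 members below (4.1%).

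The 3 members with the lowest p were Ly6e, Rsad2 and Zbp1. Ly6e was at 508, 410 and 303 CPM in CD49a+ and at 135, 294 and 128 CPM in CD49a- NK cells (1.13 ± 0.29, adjusted p = 0.245). Rsad2 was at 43.4, 36.2 and 22.2 CPM against 0, 0 and 2.68 CPM (5.19 ± 1.43, adjusted p = 0.280), a fold that depends on how the 0 values are treated. Zbp1 was at 137, 148 and 123 CPM against 72.0, 89.0 and 73.5 CPM (0.80 ± 0.24, adjusted p = 0.286). In all 3 genes the groups did not overlap, and whether they passed moved with the tool and with single libraries. Ly6e passed with DESeq2 (adjusted p = 0.0267), with no filter on low counts (0.00565) and without CD49a- replicate 2 (0.0176). Rsad2 passed with DESeq2 (adjusted p = 0.000448), with no filter (0.0101) and without CD49a- replicate 3 (0.0105), and Zbp1 with DESeq2 (0.0591). Over all alternatives the adjusted p ranged up to 1.0 for Ly6e, Rsad2 and Zbp1.

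Other members with no overlap were Ifit1 (52.6, 32.6 and 29.9 CPM in CD49a+ and 7.91, 0 and 1.02 CPM in CD49a- cells), Trim30a, Oasl1, Isg20, Phf11b and Bst2. Bst2 was at 66.7, 12.7 and 11.3 CPM against 6.91, 1.99 and 1.18 CPM. Without LM CD49a+ NK replicate 3, 17 members were higher with no overlap (12.2% of all genes) and 0 lower (7.39%). Without LM CD49a- NK replicate 2, 16 were higher (10.1%) and 0 lower (10.5%). Both libraries were picked after the member values were seen, so these counts are no independent support. Leaving out single libraries gave 0 to 2 called members. Of 22 pathway genes tested, none was called (0.14% of all genes). Tyk2 was at 161, 165 and 155 CPM in CD49a+ and at 278, 250 and 322 CPM in CD49a- cells (−0.82 ± 0.20, adjusted p = 0.234).

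LM CD49a- NK cells and MFL NK cells share the CD49a- CD49b+ phenotype and differ in site. No member was called between them (0.0736% of all genes), and 2 of 45 had an unadjusted p under 0.05 (6.72% of all genes). DESeq2 called 1 member (1.26% of all genes) and limma-voom 0 (0.765%). The median was 0.022 against −0.085 over all genes, with 23 members above and 22 below 0 (6068 and 7490 of all 13594 genes). Gbp3 (0.82 ± 0.31), Ifi44 (2.81 ± 1.12) and Rsad2 (−2.49 ± 1.28) had the lowest p, with adjusted p-values of 0.723, 0.723 and 0.763. Ifi44 was at 9.36, 24.8 and 7.17 CPM in LM and at 2.70, 1.70 and 1.47 CPM in MFL, and was the 1 member higher with no overlap (4.27% of all genes), with 2 lower (12%). Without LM CD49a- NK replicate 2, picked after the member values were seen, 4 were higher (11.8% of all genes) and 7 lower (20.2%).

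Of the CD49a+ groups of the 2 sites, LM CD49a+ NK cells were set against MFL ILC1, and 3 members were called. Called higher in LM CD49a+ NK cells was Gbp3, and called lower were Ifit1bl1 and Samd9l, against 2.29% of all genes higher and 1.29% lower. Gbp3, a guanylate-binding protein, was at 199.9, 112 and 139 CPM in LM CD49a+ NK cells and at 54.8, 43.6 and 43.1 CPM in ILC1 (1.67 ± 0.32, adjusted p = 0.00697). MFL NK cells had 57.5 to 79.5 CPM, and the CD49a- cells of LM 72.9 to 161 CPM, so that both LM groups had higher means than both MFL groups.

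Ifit1bl1 was at 6.78, 11.7 and 5.28 CPM in LM CD49a+ NK cells, against 42.4, 56.4 and 61.0 CPM in ILC1 (−2.75 ± 0.81, adjusted p = 0.0948). Samd9l was at 160, 248 and 133 CPM against 418, 313 and 355 CPM (−1.0 ± 0.26, adjusted p = 0.0478). The groups of all 3 genes were apart in every library. The Gbp3 call held without each library in turn. That of Ifit1bl1 was lost without any 1 of the 6 libraries (adjusted p = 0.109 to 0.337). That of Samd9l was lost without LM CD49a+ NK replicate 1 (0.182) or 3 (0.205) and without ILC1 replicate 1 (0.207) or 3 (0.133).

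By library values, 11 members were higher in LM CD49a+ NK cells than in ILC1 with no overlap (9.33% of all genes) and 5 were lower (13.9%). Without LM CD49a+ NK replicate 3, picked after the member values were seen, 13 were higher (15.3%) and 5 lower (19.3%). Of 22 pathway genes tested, 4 were called higher and 1 lower (2.29% and 1.29% of all genes). Irf8 (3.16 ± 0.38), Socs3 (2.33 ± 0.41), Ifngr1 (1.77 ± 0.29) and Jak1 (0.83 ± 0.21) were higher in LM CD49a+ NK cells and the receptor chain Ifnar2 was lower (−1.15 ± 0.32, adjusted p = 0.0785). Ifnar2 was at 62.7, 61.3 and 30.2 CPM in LM CD49a+ NK cells and at 96.8, 119.5 and 127 CPM in ILC1.

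The interaction asks whether the difference between CD49a+ and CD49a- cells was the same in LM as in MFL. The CD49a+ cells were CD49b+ NK cells in LM and CD49b- ILC1 in MFL. Cell type and site therefore cannot be told apart in it. None of the 45 members was called (1.03% of all genes), and 4 had an unadjusted p under 0.05 (8.7% of all genes). DESeq2 called 2 members (2.68% of all genes) and limma-voom 0 (1.32%). Phf11b (2.73 ± 0.83), Ifit1bl1 (−3.33 ± 1.10) and Rsad2 (4.14 ± 1.76) had the lowest p, with adjusted p-values of 0.251, 0.338 and 0.528. Phf11b was higher in the CD49a+ group in LM (28.6, 35.2 and 29.8 against 20.3, 14.7 and 12.5 CPM) and lower in MFL, as given above. Ifit1bl1 overlapped between the LM groups, with 13.5, 19.9 and 1.5 CPM in CD49a- cells, while the MFL groups were apart.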

How the data were processed

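The members and gene lists were chosen with earlier results of these data known. 1 gene of the pathway list is not reported here. Both deposited tables hold estimated counts per gene, which the authors made with Trim Galore and Salmon (version 1.5.0 for lymphocytes, 1.10.0 for MAMs, on GRCm39) and which are not normalized. Lymphocyte libraries were made from total RNA and MAM libraries from poly(A) RNA, and the tables were analysed apart. Here counts were rounded, genes were filtered (filterByExpr), libraries were scaled (TMM), and groups were compared with edgeR 4.0.16 (quasi-likelihood test, all 12 or 6 libraries in 1 fit, Benjamini-Hochberg adjustment over all genes tested, called below 0.1). SEs are the log2 change over the root of the F statistic. With 3 libraries per group, which the labels do not tie to separate animals for MAMs, p-values measure the spread between these samples. Alternatives used DESeq2 1.42.0, limma 3.58.1 (voom with quality weights), RLE scaling, no filter, a replicate block, fewer groups and fewer libraries. The tests were tried on simulated data. Values per library were given for up to 8 called members per comparison, or for the 3 of lowest p where fewer than 3 were called. Gene positions are from GENCODE vM39 (GRCm39) and promoter windows from RefSeq (GRCm38.p6), matched to GRCm39. With blastn, 14 members shared a stretch of at least 200 bases at 95% identity with another gene. They were Gbp7, Herc6, Ifit3, Ifit3b, Igtp, Irf9, Isg15, Mx1, Oas1a, Phf11b, Rtp4, Samd9l, Sp100 and Trim30a. A shared stretch does not make the whole genes alike. The counts of these members, and of Mx2, which shares its stretch with Mx1, are less certain. For 26 members another gene lies antisense. The paper describes stranded reads for the lymphocyte libraries, but whether counting used strand is not given in the sources used here.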

Additional observations from a re-analysis of the deposited data

How the results depend on the processing

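In MAMs the number of called members was 41 in the fit reported and 41 or 42 under the other tools and settings, and 40 to 42 without 1 library. Many genes were called there in all. The share of all genes was 52.4% with DESeq2, 58% with limma-voom and 54.6% with RLE scaling. In MAMs the filter removed none of the 13759 genes. The fit without it (54.9%) was therefore the reported fit again and no separate check. In the fit reported 27.1% were lower and 27.8% higher. The lymphocyte counts were small and moved with the tool. For LM CD49a+ against LM CD49a- NK cells, 0 members became 5 with DESeq2 (4.08% of all genes) and 3 without the low-count filter (0.91%). Without 1 library there were 0 to 2. For LM CD49a+ against MFL NK cells, 1 became 6 with DESeq2 (2.86% of all genes) and 9 with limma-voom (2.26%). The count was 3 without the filter (1.69%), 2 with only the groups compared (0.77%), and 0 to 2 without 1 library. For LM CD49a- against MFL NK cells, 0 became 1 with DESeq2 (1.26% of all genes), and 0 to 1 without 1 library. For MFL ILC1 against MFL NK cells, 1 became 6 with DESeq2 (5.12% of all genes), 2 with RLE scaling (3.02%) and 26 with limma-voom (19.5%). The count was 4 without the filter (2.72%), 17 with only the groups compared (9.61%), and 1 without each library. For LM CD49a+ NK cells against MFL ILC1, 3 (1 higher) became 5 (3 higher) with DESeq2, 6 (4 higher) with limma-voom, and 1 to 2 without 1 library. Of all genes, DESeq2 called 7.75% and limma-voom 6.88% in this comparison. For the interaction, 0 became 2 with DESeq2 (2.68% of all genes), and 0 to 2 without 1 library. The share of all genes called moved too, in lymphocytes from 1.26% to 7.75% with DESeq2, 0% to 19.5% with limma-voom, 0.719% to 3.52% without the filter and 0.0247% to 9.61% with only the groups compared. The cause was not tested. Libraries with the same replicate number deviated together little (correlations of −0.0452 to 0.0981 in lymphocytes and −0.0145 to 0.172 in MAMs). The paper states 3 independent sortings for the lymphocytes, and the labels do not say which libraries shared one. The low correlations do not show that libraries with the same replicate number came from separate sorts. The replicate block gave 0, 1, 0, 1, 3, 0 and 41 called members in the order above, ending with MAMs, the same numbers as without it. The share of all genes called with the block or without 1 library is not given here. Those counts show only whether the calls moved, and are not a result about the members. Under the alternatives run, log2 fold changes of the members named by rule kept their direction. Of these values, 278 stayed on their side of the threshold, 28 came to pass it and 13, of Ly6e, Ifit1bl1 and Samd9l in lymphocytes with 1 library left out, no longer did. Counts of members with no overlap between groups and a library left out were added after seeing the data, and the libraries left out were picked then. Lymphocyte libraries held 8795721 to 14386834 counts, and replicates differed by more than counting error (chi-square per gene of 25.1 to 186).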
